A study of Rattus norvegicus with 40 samples.

Results

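The genes described here encode the mTOR kinase, the proteins bound to it in its complexes, its activating GTPase, its direct targets and the rapamycin receptor. The list holds 10 genes: Mtor, Rptor, Rictor, Mlst8, Akt1s1, Rheb, Eif4ebp1, Eif4ebp2, Rps6kb1 and Fkbp1a. A gene was kept where the array's annotation gave it a transcript cluster (the set of probes summarised into 1 value) with that symbol alone, and the cluster with the highest mean was to be taken. This held for 9 of the 10 genes, each with exactly 1 such cluster, while Rictor had none and is not analysed here. The 9 are part of 14497 genes with a single-symbol cluster, of which 10203 genes passed the filter on low intensity, all 9 members included. Every member therefore entered every test.

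RNA levels were read on 40 Affymetrix arrays of the Rat Gene 1.0 ST design, with RNA from the livers of Sprague Dawley rats, an outbred strain. The arrays form 12 groups: 3 models, each with DMSO (the vehicle) or rapamycin, and each with RNA from polysomes and total RNA. In the fasted/refed model, adult rats of 125 to 150 g were fasted for 48 h, received an intraperitoneal injection of DMSO or of rapamycin at 250 µg per 100 g body weight, and were given food from 60 min later for 3 h (n = 3 per treatment). In the hepatectomy model, adult rats of the same weight were injected with the same agents 1 h before surgical removal of part of the liver, and the regenerating liver was taken 24 h afterwards (n = 3 per treatment). In the fetal model, fetuses were injected with DMSO or 50 µg of rapamycin on day 19 of gestation and the livers were taken on day 20, 24 h later (n = 4 per treatment). All groups thus carry an injection, and the fasted/refed livers also a fast. Polysomes, the mRNAs carrying several ribosomes, were collected from sucrose gradients, and polysome and total arrays of the same number in a group were taken to come from 1 liver, which gives 20 livers. The fetal descriptions number the 4 replicates differently from the titles, but alike in both fractions.

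The kinase mTOR works in a pair of complexes that share mLST8: mTORC1, with Raptor as its scaffold and PRAS40 (the product of Akt1s1) as an inhibitory subunit, and mTORC2, which holds Rictor. Growth factors and nutrients lead to the GTP-bound form of Rheb, which activates mTORC1, and mTORC1 then phosphorylates the 4E-BPs, which release the cap-binding protein eIF4E, and the kinase S6K1. Rapamycin acts after it has bound FKBP12, the product of Fkbp1a, and the liver is known for its translational response to feeding through this pathway. These arrays measure mRNA and not the proteins or their phosphorylation.

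Values are log2 of the authors' array intensity, differences are differences of log2 group means ± SE, and a member is said to be called where limma's p-value, adjusted over 10860 transcript clusters by the Benjamini-Hochberg method, was under 0.05. A probe set's brightness depends on its probes, so levels were compared within a gene and not between genes. The labels call the arrays of a group replicates and give no more about their source than a number, and the RNA came from pooled polysome preparations with what was pooled not given, so the p-values measure the spread between these numbered samples. The time-point label of the 3 hepatectomy polysome DMSO arrays names refeeding, against their titles. The titles were used: a list of 12 mitosis genes had a mean log2 intensity of 10.50 to 10.94 in these arrays and of 6.03 to 6.27 in the fasted/refed polysome arrays. Liver identity was clear in every group: 8 hepatocyte genes had a summed intensity of 111091 to 137945 and a mean log2 intensity of 13.69 to 14.05. Genes of blood cells were high in fetal livers: 7 erythroid genes measured of 8 listed summed to 44407.5 to 69536 in fetal arrays and 2802 to 15367 in adult arrays, and 5 granulocyte genes to 12128.5 to 19256 against 376 to 773. In RNA from whole tissue, fewer cells of a type and less RNA per cell cannot be told apart.

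The fasted/refed total arrays differed more among themselves than the hepatectomy total arrays. Over the 10860 clusters their root mean square distance from the mean of the other arrays of their group was 0.31 to 0.57, against 0.22 to 0.27 for the hepatectomy total arrays. Of 9 members, DMSO 1 and 2 were the highest or lowest of their 3 arrays in 7 each and DMSO 3 in 4. Rapamycin 2 was the highest or lowest in all 9, rapamycin 3 in 8 and rapamycin 1 in 1. By root mean square distance DMSO 3 (0.57), rapamycin 2 (0.52) and DMSO 2 (0.49) lay farthest. The deviation of the arrays numbered 2 correlated with the polysome minus total difference of the DMSO hepatectomy livers at r = 0.30 (DMSO) and r = 0.24 (rapamycin). For the other 4, r ran from −0.28 to −0.11 (across genes, which are not independent). The deviations within a group cancel out, so the signs of r in a group are tied to each other. Hepatectomy total arrays, set against the fasted/refed difference, ran from −0.29 to 0.25. Results without total DMSO 2 are given below where a call changed, and for the called polysome differences. That array was singled out on these same data, and its deviation ran with the polysome minus total difference. Polysome differences that are larger without it are therefore no separate support.

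The stretch of genome just upstream is shown for the 4 members whose group means spanned the widest range among those with a sequence at hand, of which Akt1s1, Rheb and Fkbp1a ran together over the groups and Mtor ran against them. RefSeq's promoter table of the rat assembly GRCr8 matched 8 of the 10 members, and Rptor and Eif4ebp1 are named only. Each sequence is the 250 bases before the annotated start of the gene, 5′ to 3′ on the plus strand, on which all 4 genes lie. Capitals mark the E-box CACGTG and the CCAAT box (CCAAT, or ATTGG where it lies on the other strand), searched on both strands, with matches counted wherever they occur, overlaps included. The windows are chr5:164167735-164167984 for Mtor, chr1:104469586-104469835 for Akt1s1, chr4:11013133-11013382 for Rheb and chr3:160500498-160500747 for Fkbp1a.
Mtor: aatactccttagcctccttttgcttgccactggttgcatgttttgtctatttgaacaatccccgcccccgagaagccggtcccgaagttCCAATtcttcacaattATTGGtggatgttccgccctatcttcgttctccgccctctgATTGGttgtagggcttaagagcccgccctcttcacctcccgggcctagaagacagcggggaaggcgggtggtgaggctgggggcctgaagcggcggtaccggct
Akt1s1: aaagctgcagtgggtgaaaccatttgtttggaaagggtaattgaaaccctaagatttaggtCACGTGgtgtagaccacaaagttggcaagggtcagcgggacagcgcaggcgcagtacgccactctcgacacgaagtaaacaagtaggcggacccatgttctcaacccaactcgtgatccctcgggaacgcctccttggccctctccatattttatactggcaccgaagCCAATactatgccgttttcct
Rheb: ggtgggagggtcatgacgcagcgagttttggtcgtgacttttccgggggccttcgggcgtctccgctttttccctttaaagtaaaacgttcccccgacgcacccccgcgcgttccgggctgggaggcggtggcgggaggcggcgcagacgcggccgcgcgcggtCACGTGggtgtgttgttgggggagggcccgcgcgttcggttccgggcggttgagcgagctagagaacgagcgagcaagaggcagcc
Fkbp1a: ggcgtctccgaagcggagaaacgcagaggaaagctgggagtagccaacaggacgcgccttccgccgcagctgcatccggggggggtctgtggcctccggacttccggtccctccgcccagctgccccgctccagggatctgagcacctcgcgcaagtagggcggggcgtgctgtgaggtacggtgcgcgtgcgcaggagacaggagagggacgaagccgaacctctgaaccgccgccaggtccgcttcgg
The Mtor window held 3 CCAAT boxes and 0 E-boxes, that of Akt1s1 1 of each, that of Rheb 1 E-box, and that of Fkbp1a neither. Over the 8 members with a window, 2 held an E-box against 5.59% of 33469 promoters of this length, and 3 (Mtor, Mlst8 and Akt1s1) held a CCAAT box against 34% of them. The GC box GGGCGG, not capitalised here, was in 5 of the 8 against 30.5%. A C followed by at least 4 pyrimidines at the annotated start, the opening of the 5′-terminal oligopyrimidine mRNAs whose translation follows mTORC1, was in 0 of the 8 against 2.63%. A letter match is a description of the window and shows no binding.

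Over the 12 groups, the member with the widest spread was Eif4ebp1, the cap-complex repressor 4E-BP1. Its group means ran from 11.98 ± 0.11 (SD, n = 3) in hepatectomy polysomes with DMSO to 10.52 ± 0.36 (n = 3) in fasted/refed total RNA with DMSO, a span of 1.46. Only 2 of its 11 gaps between neighbouring groups in this order were wider than the larger SD of the pair: the one below the fasted/refed polysome rapamycin group (0.14) and the one below hepatectomy total DMSO (0.32). Fkbp1a spanned 1.13, from 12.50 ± 0.18 in hepatectomy polysomes with DMSO to 11.37 ± 0.05 in fetal polysomes with rapamycin. All 4 adult polysome groups headed its order, and the 4 fetal groups lay among its lowest 5. Akt1s1 spanned 1.12, with the 4 adult polysome groups on top (10.56 to 10.86) and fetal total RNA with rapamycin lowest at 9.74 ± 0.33. Rheb spanned 1.03 and had the same 4 groups on top, from 11.25 ± 0.04 in hepatectomy polysomes with rapamycin, and 10.22 ± 0.30 in fetal total RNA with rapamycin at the bottom.

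Mtor itself was ordered the other way. Its highest mean was in fetal polysomes with rapamycin (10.44 ± 0.10, n = 4), followed by fetal polysomes with DMSO (10.33 ± 0.07), and its 4 lowest means were those of the adult polysome groups, down to 9.44 ± 0.09 (n = 3) in hepatectomy polysomes with rapamycin. The whole span was 1.00, and 3 of 11 neighbouring gaps were wider than the larger SD. Rptor, the scaffold Raptor, spanned 0.89, from 9.02 ± 0.30 in fasted/refed total RNA with DMSO to 8.13 ± 0.14 in hepatectomy polysomes with rapamycin, and the gap above that last group (0.29) was the only one past the larger SD. Mlst8 spanned 0.65, from 9.62 ± 0.28 in fasted/refed polysomes with DMSO to 8.97 ± 0.10 in hepatectomy total RNA with rapamycin.

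The remaining targets varied least. Eif4ebp2, the second 4E-BP, spanned 0.60, and Rps6kb1, which encodes S6K1, spanned 0.58. For both, every one of the 11 gaps between neighbouring groups lay within the larger SD, so neighbours in their order do not differ beyond their spread. The 4 adult polysome groups were still the top 4 for Rps6kb1, and it was higher on polysomes in 12 of 12 adult livers (11 of 12 after cyclic loess scaling). The largest SD fell in fasted/refed total RNA with DMSO for 7 of the 9 members (0.30 to 0.41).

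**Figure D1:**
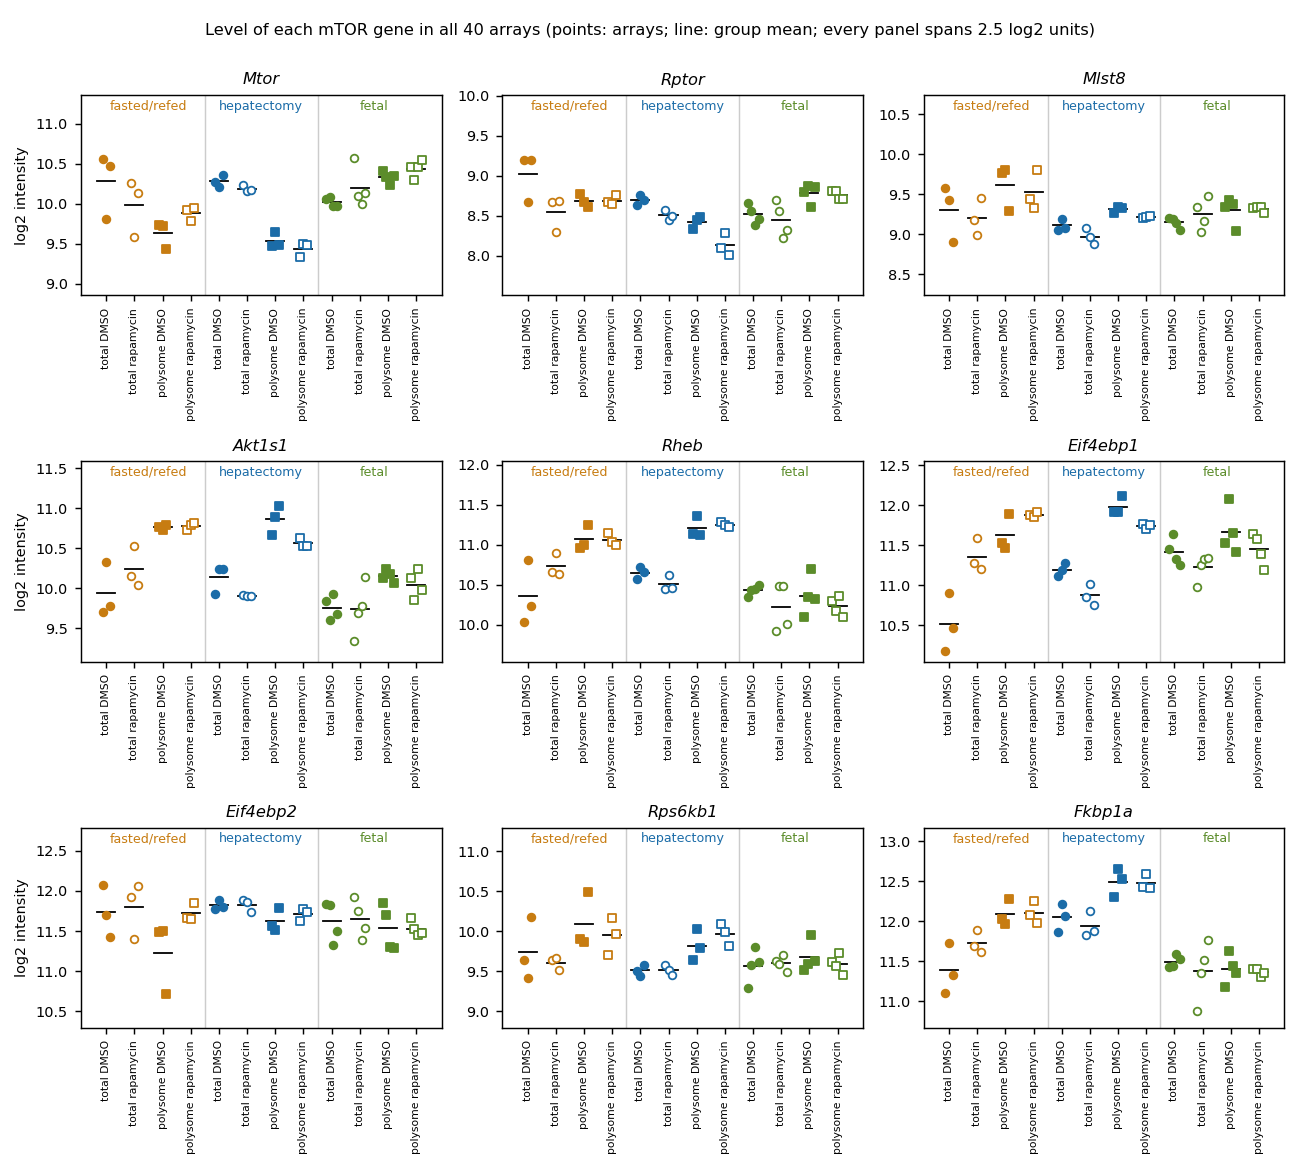
Log2 intensity of each of the 9 members on every array (points) and its group mean (line) in 12 groups: circles are total RNA, squares polysome RNA, filled symbols DMSO and open symbols rapamycin, and every panel spans the same 2.5 log2 units. Akt1s1, Rheb, Eif4ebp1 and Fkbp1a sit higher in adult polysome groups than in adult total RNA, Mtor sits lower there, and in fetal livers Mtor sits higher on polysomes with DMSO.

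As a description over the 12 group means, in which polysome and total groups share livers, Rheb and Fkbp1a had a Pearson r of 0.93, Akt1s1 and Rheb 0.91, and Mtor and Rptor 0.65. Mtor ran against Rheb (r = −0.92), Fkbp1a (−0.83) and Akt1s1 (−0.76). The tested gene most like Mtor by this measure was Mcm3ap (0.96), for Rptor it was Siglec1 (0.94), for Mlst8 Dus4l (0.95), and for Akt1s1 Bola1 (0.99). For Rheb it was Mrpl10 (0.99), for Eif4ebp1 Ndufb5 (0.98), for Eif4ebp2 Atg9a (0.86), for Rps6kb1 Rpp38 (0.97) and for Fkbp1a Cnep1r1 (0.98).

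Comparing polysome with total RNA asks which mRNAs were over- or under-represented on ribosomes. In the DMSO livers of both adult models, the mRNAs of PRAS40, Rheb, 4E-BP1 and FKBP12 were 1.36- to 2.16-fold higher on polysomes, and in the hepatectomy livers those of mTOR and Raptor were lower there. None of the 9 members was called in the fetal livers. The authors' RMA scales arrays to each other, although which arrays were scaled together is not given, so a value is relative to the other mRNAs of its fraction. The median over all tested clusters was 0.10, 0.09 and 0.04 in the fasted/refed, hepatectomy and fetal livers, and 0.35, 0.31 and 0.15 over the members. Under cyclic loess scaling the members' medians were 0.15, 0.15 and 0.06, and those of all clusters 0.00, 0.02 and 0.02.

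The kinase mRNA showed the opposite sign to most members in the adult livers. In the hepatectomy DMSO livers, Mtor read 9.47, 9.65 and 9.48 on polysomes and 10.27, 10.21 and 10.36 in total RNA. Every polysome array lay below every total array, and the difference was −0.75 ± 0.09 (1.68-fold lower, adjusted p = 6.91e-05). With food after a fast, the polysome arrays read 9.73, 9.72 and 9.44 and the total arrays 10.56, 9.81 and 10.48, again without overlap, but total array 2 lay close to the polysome values. There the difference of −0.65 ± 0.22 missed the threshold (adjusted p = 0.0539), and without that array it was −0.89 (adjusted p = 0.00647). With the liver as a block, which pairs the fractions, the difference of −0.65 was called (adjusted p = 0.0164). In fetal DMSO livers the sign turned: polysome arrays read 10.42, 10.33, 10.24 and 10.35 against 10.06, 10.09, 9.98 and 9.97 in total RNA, with no overlap, a difference of 0.31 ± 0.12 and an adjusted p of 0.0945. Over single livers of both treatments, Mtor was lower on polysomes in 11 of 12 adult livers (median −0.67) and higher in 7 of 8 fetal livers (median 0.31), counts that cyclic loess scaling left as they were.

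The scaffold followed the kinase with smaller values. Rptor read 8.33, 8.45 and 8.48 on hepatectomy polysomes and 8.64, 8.76 and 8.69 in the total RNA of the same livers, which did not overlap, a fall of 0.28 (SE 0.09, adjusted p = 0.0292). This call was lost without hepatectomy polysome DMSO 1 or 2 or total DMSO 2 or 3 (adjusted p 0.0504 to 0.0883), and with the spread taken from all 40 arrays (adjusted p = 0.105). Its fasted/refed difference was −0.34 ± 0.16 (adjusted p = 0.161), or −0.51 (adjusted p = 0.0193) without total DMSO 2, and its fetal difference 0.27 ± 0.11 (adjusted p = 0.121). Rptor was higher on polysomes in 8 of 8 fetal livers. It was lower in 9 of 12 adult livers, and the 3 in which it was higher were the fasted/refed rapamycin livers (mean 0.14 ± 0.18, SD), against −0.34 ± 0.30 in those with DMSO. That difference between the treatments, 0.48 ± 0.23, was not called (adjusted p = 0.994). Mlst8, shared by both complexes, was higher on polysomes in 12 of 12 adult livers (11 of 12 after cyclic loess scaling), but its differences of 0.32 ± 0.22, 0.20 ± 0.08 and 0.15 ± 0.11 in the fasted/refed, hepatectomy and fetal DMSO livers were not called. With the liver as a block, Mlst8 was called in both adult models (adjusted p = 0.0393 and 0.0406).

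The inhibitory subunit, the activator and the rapamycin receptor were enriched on adult polysomes. For Akt1s1, fasted/refed DMSO polysomes read 10.77, 10.74 and 10.79 against 9.71, 10.33 and 9.78 in total RNA, a difference of 0.83 ± 0.18 (1.77-fold, adjusted p = 0.00726). Hepatectomy livers gave 0.73 ± 0.11 (adjusted p = 0.000356) and fetal livers 0.39 ± 0.15 (adjusted p = 0.0877), and in no model did the fractions overlap. Rheb read 11.13, 11.36 and 11.12 on hepatectomy polysomes against 10.57, 10.72 and 10.66 in total RNA, 0.55 ± 0.09 higher (adjusted p = 0.000524), and was 0.71 ± 0.19 higher in fasted/refed livers (adjusted p = 0.0182). The latter call was lost under cyclic loess scaling and without fasted/refed polysome DMSO 3, total DMSO 1 or total DMSO 3 (adjusted p 0.0552 to 0.0694). In fetal livers Rheb overlapped between the fractions, with a difference of −0.07 ± 0.15. Fkbp1a was 0.71 ± 0.16 higher in fasted/refed livers (adjusted p = 0.00923) and 0.45 ± 0.12 higher in hepatectomy livers (12.30, 12.66 and 12.53 against 11.87, 12.22 and 12.07, adjusted p = 0.00974). Its fetal difference was −0.09 ± 0.15. Without fasted/refed total DMSO 2 these fasted/refed differences were 1.02 for Akt1s1, 0.94 for Rheb and 0.87 for Fkbp1a, each still called. The larger values are no separate support, since that array was singled out on these data.

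Of the targets, Eif4ebp1 had the largest values. Fasted/refed DMSO polysomes read 11.53, 11.47 and 11.89 against 10.18, 10.90 and 10.47 in total RNA, which do not overlap, a difference of 1.11 ± 0.19 (2.16-fold, adjusted p = 0.00237, and 1.30 without total DMSO 2). Hepatectomy polysomes read 11.91, 11.92 and 12.11 against 11.12, 11.19 and 11.28, a difference of 0.78 ± 0.09 (1.72-fold, adjusted p = 5.84e-05). Fetal polysomes and total RNA overlapped, with a difference of 0.25 ± 0.15 (adjusted p = 0.295). Rps6kb1 was 0.31 ± 0.11 higher on hepatectomy polysomes (adjusted p = 0.0429), a call kept in 9 of 21 alternatives and lost, for example, under cyclic loess scaling (0.15, adjusted p = 0.256) and without polysome DMSO 2 (0.20, adjusted p = 0.166). The other 4E-BP gene did not share the direction of Eif4ebp1: Eif4ebp2 was lower on polysomes in 10 of 12 adult livers, with uncalled differences of −0.50 ± 0.24, −0.20 ± 0.09 and −0.09 ± 0.16 in the 3 models.

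By count, 4 of 9 members were called higher and 0 lower on fasted/refed polysomes, against 19.5% and 5.14% of all tested clusters. In hepatectomy livers 5 were higher and 2 lower, against 28.8% and 15.0%, and in fetal livers limma called 0 in either direction against 8.10% and 6.38%, with 3 members and 3216 clusters at an unadjusted p under 0.05. Cyclic loess scaling, which moved the median of all clusters in fasted/refed livers by −0.10, gave 3 higher and 1 lower (Mtor, −0.87) there and 4 higher and 3 lower in hepatectomy livers, where Eif4ebp2 became the third lower gene (−0.34). Of all 10860 clusters that scaling called 1448 higher and 921 lower in fasted/refed livers, and 2477 and 2069 in hepatectomy livers. In fetal livers the counts were 718 and 859. The scaling lowered the share of calls that were higher from 79.2% to 61.1%, from 65.8% to 54.5% and from 55.9% to 45.5% in the 3 models. The liver was also taken as a block, since polysome and total arrays of 1 number come from 1 liver. Then 8 of 9 members (all but Rptor) were called in fasted/refed livers. Besides Mlst8 and the 4 above, these were Mtor (adjusted p = 0.0164), Eif4ebp2 (adjusted p = 0.0137) and Rps6kb1 (adjusted p = 0.0468). Hepatectomy livers gave 9 of 9 and fetal livers 0 of 9. Over all clusters that block called 4615 in fasted/refed livers (2679 without it) and 3044 in fetal livers (1573 without it). The count over all clusters in hepatectomy livers under the block is not at hand, so the 9 of 9 cannot be set against it. A list of 7 stellate cell and fibroblast genes summed to 4292 to 6198 on fasted/refed DMSO polysomes against 6926 to 9208 in total RNA, 2551 to 4064 against 5362 to 6552 after hepatectomy and 2702 to 3984 against 5320 to 8187 in fetal livers. Its part in the members' values was not tested.

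**Figure D2:**
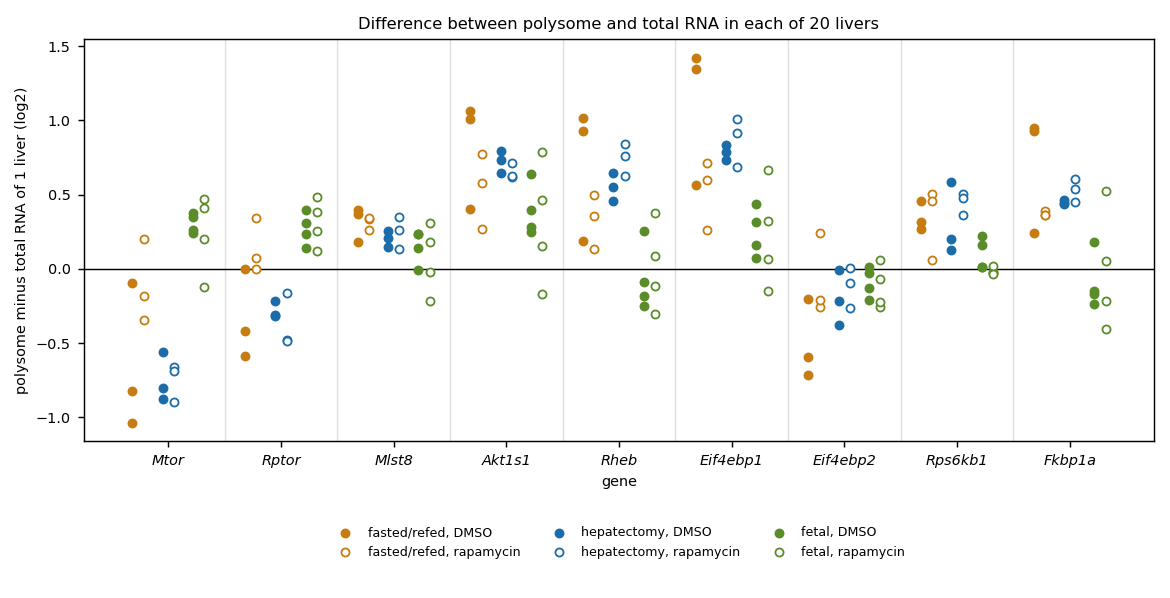
Polysome minus total difference in log2 intensity within each of 20 livers for the 9 members, by model and treatment, with the line at 0 marking equal levels in both fractions. Mtor lies below 0 in 11 of 12 adult livers and above it in 7 of 8 fetal livers, and Akt1s1, Rheb, Eif4ebp1 and Fkbp1a lie above 0 in 12 of 12 adult livers.

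The polysome minus total difference itself varied among the 3 models for 5 of 9 members, against 7.44% of all clusters (limma's F test on the DMSO arrays). Mtor had the smallest adjusted p (0.00244) and kept its call in 29 of 29 alternatives: its difference was 1.05 ± 0.21 higher in fetal than in hepatectomy livers, 0.96 ± 0.21 higher than in fasted/refed livers, and −0.09 ± 0.22 between the adult models. Rptor went the same way (0.55 ± 0.17 and 0.61 ± 0.17, adjusted p = 0.0276). Rheb (−0.62 ± 0.21 and −0.78 ± 0.21, adjusted p = 0.0288), Eif4ebp1 (−0.54 ± 0.21 and −0.86 ± 0.21, adjusted p = 0.0235) and Fkbp1a (−0.54 ± 0.21 and −0.80 ± 0.21, adjusted p = 0.0322) were less enriched on fetal polysomes. Each of these last 4 calls was lost on leaving out any 1 of 6 or 7 arrays, among them fetal polysome DMSO 1 and 4 and fasted/refed total DMSO 1 and 3 (adjusted p 0.0501 to 0.0915), and those of Rheb, Eif4ebp1 and Fkbp1a under cyclic loess scaling. The sums of erythroid and granulocyte genes that set fetal livers apart move with this contrast, and their part in it was not tested.

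Of the other genes of the pathway, 58 tested of a list of 81, 13 were called higher and 3 lower on fasted/refed polysomes, 20 and 7 on hepatectomy polysomes and 5 and 2 on fetal ones. Over all clusters the shares called higher and lower were 19.5% and 5.14%, 28.8% and 15.0%, and 8.10% and 6.38%. Cyclic loess scaling gave 7 and 4, 13 and 10, and 5 and 3. Over all clusters that scaling called 1448 and 921, 2477 and 2069, and 718 and 859. Lamtor5 and Lamtor4, subunits of the Ragulator that anchors mTORC1 at the lysosome, were higher by 1.15 ± 0.19 and 1.14 ± 0.22 in fasted/refed livers (adjusted p 0.00243 and 0.00406) and by 1.07 ± 0.10 and 0.72 ± 0.10 after hepatectomy (adjusted p 1.99e-05 and 0.000195). Fkbp3 and Fkbp8, relatives of FKBP12, were higher by 1.59 ± 0.17 and 0.71 ± 0.15 in fasted/refed livers (adjusted p 0.000417 and 0.00634). Fkbp8 was also higher after hepatectomy (0.57 ± 0.08, adjusted p = 0.000245) and in fetal livers (0.55 ± 0.12, adjusted p = 0.00911), and so was Wdr24, part of the GATOR2 complex (0.57 ± 0.09, adjusted p = 0.000579, and 0.62 ± 0.14, adjusted p = 0.0081). In fetal livers the amino acid transporter gene Slc38a9 was lower on polysomes (−0.54 ± 0.12, adjusted p = 0.00844) and Stk11, which encodes LKB1, higher (0.39 ± 0.09, adjusted p = 0.0129). The difference varied among the models for 5 of the 58, against 7.44% of all clusters. Eef2 (adjusted p = 0.00542), Lamtor3 (0.00952), Rps6 (0.0283) and Tbc1d7 (0.0352) came first by limma's F test.

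Setting the DMSO livers of the models against each other asks how the members differ between feeding, regeneration and fetal growth. On polysomes, the fetal livers stood apart from both adult models with more Mtor and less Akt1s1, Rheb and Fkbp1a. In total RNA the fasted/refed livers stood apart with less Eif4ebp1.

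Mtor on fetal polysomes (10.24 to 10.42) lay above every adult DMSO polysome array (9.44 to 9.73). It was 0.80 ± 0.15 higher than after hepatectomy (1.74-fold, adjusted p = 3.00e-05) and 0.70 ± 0.15 higher than in fasted/refed livers (1.63-fold, adjusted p = 0.000153). In total RNA its fetal values of 9.97 to 10.09 were −0.25 ± 0.15 and −0.26 ± 0.15 from those of the same models and not called, although without fasted/refed total DMSO 2 the second was −0.49 (adjusted p = 0.00458). Rptor was 0.37 ± 0.12 higher on fetal than on hepatectomy polysomes (adjusted p = 0.0114), and 0.0546 without hepatectomy polysome DMSO 1. In total RNA it was lower in fetal livers (8.38 to 8.65) than in fasted/refed livers (8.68 to 9.19), a difference of −0.51 ± 0.12 (adjusted p = 0.000719, and −0.68 without fasted/refed total DMSO 2). Mlst8 was called in none of these comparisons, its largest difference being −0.32 ± 0.14 between fetal and fasted/refed polysomes (adjusted p = 0.0587), and −0.48 (adjusted p = 0.00932) without fasted/refed polysome DMSO 3.

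Fkbp1a read 11.18, 11.63, 11.44 and 11.36 on fetal polysomes, below 12.30, 12.66 and 12.53 on hepatectomy polysomes and 12.04, 11.97 and 12.29 on fasted/refed ones. The differences were −1.10 ± 0.15 (2.14-fold lower, adjusted p = 2.50e-07) and −0.70 ± 0.15 (1.62-fold lower, adjusted p = 0.000217). In total RNA Fkbp1a was highest after hepatectomy, 0.66 ± 0.16 above fasted/refed livers (adjusted p = 0.00332), and fetal livers were −0.56 ± 0.15 from hepatectomy livers (adjusted p = 0.00340).

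Rheb on fetal polysomes (10.09, 10.34, 10.69 and 10.32) also lay below all adult DMSO polysome arrays (10.96 to 11.36), with a difference of −0.84 ± 0.15 from hepatectomy livers (1.79-fold lower, adjusted p = 1.83e-05) and −0.71 ± 0.15 from fasted/refed livers (adjusted p = 0.000173). In total RNA its fetal differences were −0.22 ± 0.15 and 0.07 ± 0.15, neither called. Akt1s1 was −0.71 ± 0.15 (adjusted p = 0.000161) and −0.61 ± 0.15 (adjusted p = 0.000832) from the hepatectomy and fasted/refed polysomes, without overlap. Its total RNA difference of −0.38 ± 0.15 between fetal and hepatectomy livers (adjusted p = 0.0437) kept its call in 9 of 15 alternatives, and lost it without fetal total DMSO 2 or 4 or hepatectomy total DMSO 2 or 3 (adjusted p 0.0925 to 0.150).

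Among the targets, Eif4ebp1 was lower in fasted/refed total RNA than in that of both other models. Its 3 fasted/refed arrays (10.18, 10.90 and 10.47) lay below those of hepatectomy (11.12, 11.19 and 11.28) and of fetal livers (11.45, 11.64, 11.33 and 11.25). The differences were 0.68 ± 0.16 (adjusted p = 0.00302) and 0.90 ± 0.15 (1.86-fold, adjusted p = 8.35e-06). On polysomes none of its differences was called, the largest being 0.35 ± 0.16 between hepatectomy and fasted/refed livers (adjusted p = 0.168). That difference was called with array quality weights (0.47, adjusted p = 0.000806), and so was the one between fetal and hepatectomy polysomes (−0.34, adjusted p = 0.0192), which was also called without fetal polysome DMSO 2 (−0.45, adjusted p = 0.0120). Whether the fractions differ in this was tested by the F test above (adjusted p = 0.0235). Rps6kb1 was −0.42 ± 0.16 from fasted/refed livers on fetal polysomes (adjusted p = 0.0255), which was −0.21 (adjusted p = 0.289) without fasted/refed polysome DMSO 3 and also not called without fetal polysome DMSO 1 or 2. Eif4ebp2 was called in none of these comparisons, with intervals that reached from −0.56 to 0.78.

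By count on polysomes, limma called 0 of 9 members between hepatectomy and fasted/refed livers, against 7.86% of clusters higher and 4.83% lower, with 4 members and 2667 clusters at an unadjusted p under 0.05. Fetal against fasted/refed polysomes gave 1 higher and 4 lower (23.6% and 27.0% of clusters), and fetal against hepatectomy polysomes 2 higher and 3 lower (23.5% and 26.7%). In total RNA the counts were 2 higher and 0 lower between hepatectomy and fasted/refed livers (12.4% and 5.03%), 1 and 1 between fetal and fasted/refed livers (28.1% and 19%), and 0 and 2 between fetal and hepatectomy livers (19.9% and 17.0%). Without fasted/refed total DMSO 2 the first of these 3 rose to 4 members, with Rheb at 0.52 (adjusted p = 0.0115) and Rptor at −0.50 (adjusted p = 0.00365). The marker lists differ with the model: the erythroid and granulocyte genes summed higher in fetal than in adult livers. The 5 lymphocyte genes summed lower there (1528 to 2907 against 4556 to 9502), but their mean log2 intensity overlapped (7.71 to 8.30 against 7.80 to 8.55). The mitosis list averaged 10.15 to 10.94 in hepatectomy DMSO arrays, 9.50 to 10.73 in fetal DMSO arrays and 5.99 to 6.20 in fasted/refed DMSO arrays. Their part in the members' differences was not tested.

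**Figure D3:**
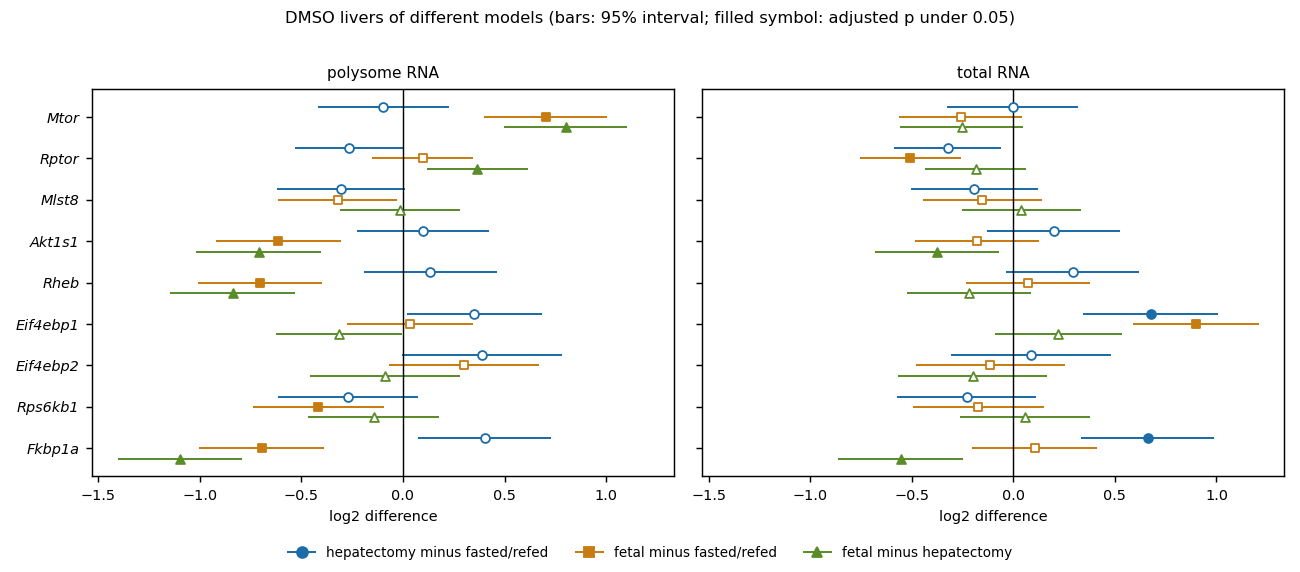
Log2 differences between models for the 9 members in the DMSO livers, with 95% intervals, polysome RNA and total RNA in separate panels, and filled symbols for an adjusted p under 0.05. On polysomes the fetal livers lie above both adult models for Mtor and below them for Akt1s1, Rheb and Fkbp1a, and in total RNA Eif4ebp1 is lower in fasted/refed livers than in both other models.

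Of the other 58 pathway genes on polysomes, 2 were called higher and 4 lower after hepatectomy than in fasted/refed livers, 19 and 9 in fetal than in fasted/refed livers, and 15 and 10 in fetal than in hepatectomy livers. The shares of all clusters were 7.86% and 4.83%, 23.6% and 27.0%, and 23.5% and 26.7%. Grb10, an adaptor that restrains insulin and IGF signalling and is itself an mTORC1 substrate, was higher in fetal livers by 5.39 ± 0.12 (adjusted p = 7.23e-27) and 5.40 ± 0.12 (adjusted p = 6.88e-27) against the fasted/refed and hepatectomy models. Lpin1, which encodes lipin 1, was higher by 3.63 ± 0.33 (adjusted p = 7.33e-11) and 2.98 ± 0.33 (adjusted p = 6.53e-09), and Igf1r, the IGF-1 receptor gene, by 1.09 ± 0.13 (adjusted p = 3.35e-08) and 1.35 ± 0.13 (adjusted p = 5.67e-10). Fkbp4 was −1.44 ± 0.16 from fasted/refed livers (adjusted p = 3.77e-09) and Prkaa2, a catalytic subunit of the energy sensor AMPK, −2.79 ± 0.31 from hepatectomy livers (adjusted p = 5.86e-09). Between the adult models, Depdc5, a subunit of the GATOR1 complex, was 0.76 ± 0.16 higher after hepatectomy (adjusted p = 0.00116), and Hif1a (−0.48 ± 0.11, adjusted p = 0.00262), Pik3r1 (−0.68 ± 0.16, adjusted p = 0.00336) and Eef2 (−0.29 ± 0.07, adjusted p = 0.00742) were lower.

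In total RNA the same comparisons called 5 higher and 4 lower, 20 and 7, and 16 and 6 of the 58. The shares of all clusters were 12.4% and 5.03%, 28.1% and 19%, and 19.9% and 17.0%. Grb10 was again first in fetal livers (5.59 ± 0.12, adjusted p = 3.07e-27, and 5.34 ± 0.12, adjusted p = 9.66e-27). Pdcd4, an inhibitor of the helicase eIF4A, was higher there by 1.24 ± 0.12 (adjusted p = 1.76e-10) and 1.17 ± 0.12 (adjusted p = 1.16e-09), while Prkaa2 was −2.73 ± 0.31 (adjusted p = 6.98e-09) and −3.13 ± 0.31 (adjusted p = 6.34e-10) and Fkbp4 −1.32 ± 0.16 (adjusted p = 2.08e-08) and −1.23 ± 0.16 (adjusted p = 1.26e-07). Between the adult models Pik3r1 (−0.84 ± 0.16, adjusted p = 0.000326) and Wdr24 (−0.47 ± 0.13, adjusted p = 0.0122) were lower after hepatectomy, and Depdc5 (0.67 ± 0.16, adjusted p = 0.00383) and Slc38a9 (0.67 ± 0.19, adjusted p = 0.0129) higher.

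Rapamycin against DMSO asks whether the drug altered the mRNAs of its own target complex. No member passed the threshold in any of the 6 comparisons (limma, 0 of 9 each). Over all clusters the calls came to 0% in fasted/refed polysome and total RNA, 6.35% in hepatectomy polysome RNA, 5.01% in hepatectomy total RNA and 0% in fetal polysome and total RNA. At an unadjusted p under 0.05 the members counted 0, 2, 3, 1, 0 and 0 in that order, and the clusters 526, 1832, 2774, 2567, 247 and 199. The intervals say how large a change the values allow. Among the members, the interval end farthest from 0 lay 1.25 away in fasted/refed, 0.54 in hepatectomy and 0.53 in fetal livers. The fasted/refed and hepatectomy ends belonged to intervals that excluded 0. These were 0.43 to 1.25 for Eif4ebp1 in total RNA and −0.54 to −0.06 for Akt1s1 on polysomes.

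The largest value was that of Eif4ebp1 in fasted/refed total RNA. Its rapamycin arrays read 11.28, 11.60 and 11.20 and its DMSO arrays 10.18, 10.90 and 10.47, so every treated array lay above every control. The difference was 0.84 ± 0.19 (1.79-fold, 95% interval 0.43 to 1.25), with an adjusted p of 0.237. Rptor in the same RNA read 8.67, 8.30 and 8.68 with rapamycin and 9.19, 8.68 and 9.19 with DMSO, −0.47 ± 0.16 (adjusted p = 0.237), with the number 2 array the lowest in both groups. Rptor overlapped narrowly between the treatments. So did Rheb (0.37 ± 0.19, adjusted p = 0.342), Fkbp1a (0.35 ± 0.16, adjusted p = 0.307) and Akt1s1 (0.30 ± 0.18, adjusted p = 0.411), by more.

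These values depend on the arrays numbered 2. Without total DMSO 2 alone, 1756 clusters and 5 members were called: Eif4ebp1 at 1.03 (adjusted p = 0.00713), Rptor at −0.65 (adjusted p = 0.0160), Rheb at 0.60 (adjusted p = 0.0201), Fkbp1a at 0.51 (adjusted p = 0.0331) and Akt1s1 at 0.50 (adjusted p = 0.0447). Leaving out total rapamycin 2 as well, a setting chosen after seeing the data, called 928 clusters and the members Eif4ebp1 (0.91, adjusted p = 0.0181) and Rptor (−0.52, adjusted p = 0.0308). With the spread taken from all 40 arrays the same 2 genes were called (adjusted p = 0.0141 and 0.0397) at unchanged differences.

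On fasted/refed polysomes, Eif4ebp2 read 11.66, 11.65 and 11.86 with rapamycin and 11.48, 11.50 and 10.71 with DMSO, which did not overlap, a difference of 0.49 ± 0.24 (95% interval −0.05 to 1.03, adjusted p = 0.999) that was 0.23 without the low DMSO array 3. Mtor read 9.92, 9.78 and 9.95 against 9.73, 9.72 and 9.44, again without overlap (0.25 ± 0.22). Eif4ebp1, at 0.25 ± 0.19, overlapped, and the other 6 members lay within 0.14 of 0 in either direction.

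After hepatectomy, Rptor, Akt1s1, Eif4ebp1 and Mlst8 had lower polysome values with rapamycin without overlap, none of them called. The share of all clusters without overlap was not counted in any rapamycin comparison, so a lack of overlap is a description only. Rptor read 8.10, 8.28 and 8.01 against 8.33, 8.45 and 8.48 (−0.29 ± 0.09, adjusted p = 0.0806), and Akt1s1 read 10.63, 10.52 and 10.53 against 10.67, 10.89 and 11.03 (−0.30 ± 0.11, adjusted p = 0.119). Both were called without polysome DMSO 1 (−0.33, adjusted p = 0.0467, and −0.40, adjusted p = 0.0342). Eif4ebp1 read 11.76, 11.71 and 11.76 against 11.91, 11.92 and 12.11 (−0.24 ± 0.09, adjusted p = 0.129), and Mlst8 differed by −0.10 ± 0.08. In total RNA, Eif4ebp1 read 10.85, 11.02 and 10.75 against 11.12, 11.19 and 11.28, −0.32 ± 0.09 (adjusted p = 0.0608), and Rptor (−0.19 ± 0.09) and Akt1s1 (−0.23 ± 0.11) did not overlap either. Eif4ebp1 was called there with array quality weights (−0.36, adjusted p = 0.0120), without total rapamycin 2 (−0.40, adjusted p = 0.0375) and without polysome DMSO 3 (adjusted p = 0.0486). The mitosis list averaged 8.09 to 9.77 in the hepatectomy rapamycin arrays against 10.15 to 10.94 with DMSO, and other cell lists moved with the drug too. In total RNA 6 endothelial genes summed to 5282 to 5934 with rapamycin against 3461 to 4515 with DMSO (on polysomes 3913 to 4294 against 2341 to 3561), the stellate cell and fibroblast genes to 7540 to 8113 against 5362 to 6552, and the lymphocyte genes to 6154 to 8422 against 5064 to 5688 (on polysomes 6255 to 7168 against 4556 to 5175). By mean log2 the lymphocyte list overlapped in total RNA (8.13 to 8.36 against 7.98 to 8.18) but not on polysomes (7.99 to 8.28 against 7.80 to 7.86). The 7 macrophage genes summed to 7879 to 8610 against 4948 to 7524 on polysomes, and overlapped in total RNA. Of 5 bile duct genes, 4 were measured. They summed to 828 to 887 against 704 to 786 in total RNA, and overlapped on polysomes. The part of these lists in the members' values was not tested.

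Fetal livers gave the smallest values. All 9 members overlapped between the treatments in both fractions, with Eif4ebp1 at −0.21 ± 0.15 on polysomes and Rheb at −0.21 ± 0.15 in total RNA farthest from 0. Mtor differed by 0.11 ± 0.12 and 0.18 ± 0.12 in polysome and total RNA, and Rps6kb1 by −0.09 ± 0.13 and 0.03 ± 0.13.

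Whether the drug's effect differed between polysome and total RNA was tested within each model, and limma called 0 members in each, against 0% of clusters in the fasted/refed, hepatectomy and fetal livers (266, 158 and 45 clusters at an unadjusted p under 0.05, with 1, 0 and 0 members). That member was Eif4ebp1 in fasted/refed livers, whose effect was −0.59 ± 0.26 on polysomes relative to total RNA (adjusted p = 0.994).

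The effect of rapamycin in total RNA varied among the 3 models for 1 of 9 members, Eif4ebp1 (limma's F test, adjusted p = 0.0160), against 0.424% of clusters. Its effect was 0.84, −0.32 and −0.19 in the fasted/refed, hepatectomy and fetal livers, which differed by −1.16 ± 0.23 and −1.03 ± 0.21 in the hepatectomy and fetal livers from the fasted/refed ones, and by 0.13 ± 0.21 between fetal and hepatectomy livers. The call was kept in 22 of 29 alternatives. It was lost without fasted/refed total DMSO 1 or 3, fasted/refed total rapamycin 2, hepatectomy total DMSO 2 or 3, or hepatectomy total rapamycin 1 or 3 (adjusted p 0.0523 to 0.0823). Without fasted/refed total DMSO 2, Mtor (adjusted p = 0.0334), Rheb (0.0121) and Rptor (0.0353) were called besides. On polysomes limma called 0 members against 0.0368% of clusters, with 0 members and 621 clusters at an unadjusted p under 0.05. The DMSO fasted/refed total arrays enter this test, the polysome comparison and the model comparison of Eif4ebp1 alike, so these 3 results are not independent.

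**Figure D4:**
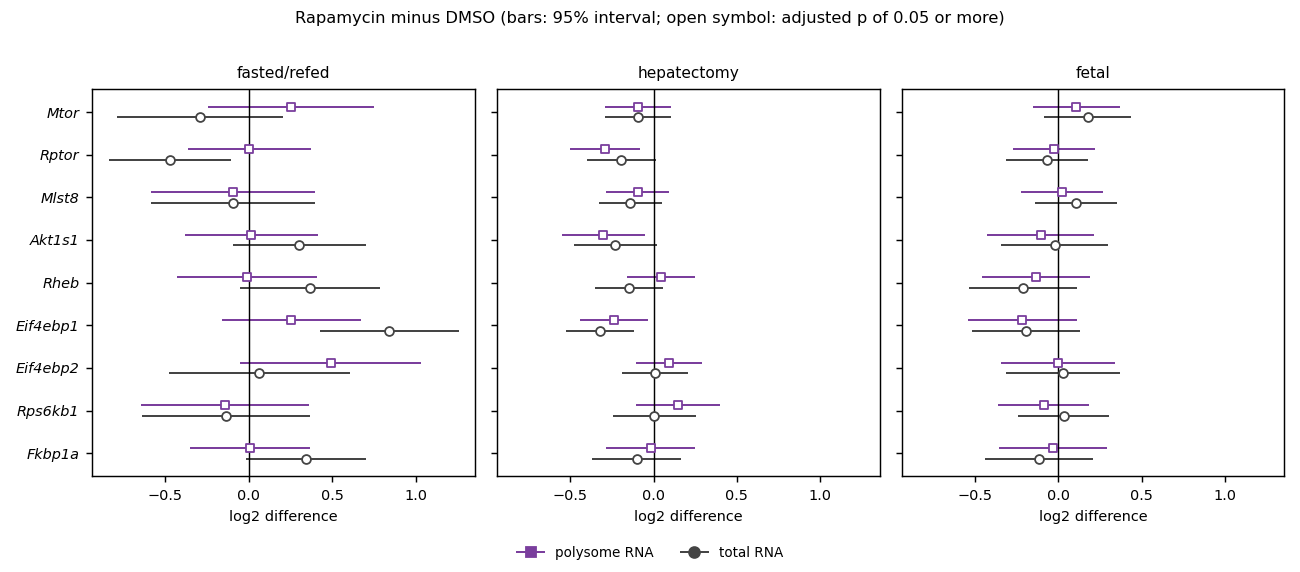
Rapamycin minus DMSO difference in log2 intensity with its 95% interval for the 9 members in the 3 models, squares for polysome RNA and circles for total RNA, all open because no adjusted p was under 0.05. Eif4ebp1 lies at 0.84 in fasted/refed total RNA and at −0.32 in hepatectomy total RNA.

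Of the other 58 pathway genes, limma called only some in hepatectomy livers, 0 higher and 2 lower on polysomes and 0 higher and 3 lower in total RNA, with 0 in the other 4 rapamycin comparisons. Of all clusters, 6.35% and 5.01% were called in hepatectomy polysome and total RNA, and 0% in the other 4 comparisons. Sesn3, which encodes a member of the stress-inducible sestrin family, was lower with rapamycin in both fractions (−0.68 ± 0.13, adjusted p = 0.0210, and −0.61 ± 0.13, adjusted p = 0.0289). Ddit4, which encodes the mTORC1 inhibitor REDD1, was lower on polysomes (−0.73 ± 0.16, adjusted p = 0.0308). Prkaa2 (−0.30 ± 0.07, adjusted p = 0.0390) and Eif4e, the gene of the cap-binding protein that the 4E-BPs hold (−0.56 ± 0.14, adjusted p = 0.0405), were lower in total RNA.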

How the data were processed

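The labels place the 40 arrays in 12 groups of liver RNA. What was deposited is linear array intensity, with each transcript cluster summarised to a single value on an array. The authors had used RMA (robust multi-array averaging), per the submitters' processing notes, and its settings were not given. Since RMA scales arrays to each other, a shift shared by all mRNAs of a fraction cannot be read reliably from these values. Values ran from 3.77 to 28447 over 28826 transcript clusters and were taken to log2 without a pseudocount. Array medians lay between 7.09 and 7.40 on that scale, so the 40 distributions were not fully alike. Precision is limited by the number of arrays.

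Of the transcript clusters, 15209 carried 1 gene symbol, 306 several and 13311 none here. Symbols were checked by Entrez number against RefSeq (15178 matched, 0 differed). The 10860 clusters tested had a symbol and a mean log2 intensity of at least 6.70, the 30th percentile. Differences were fitted with limma 3.58.1 in R 4.3.3 (lmFit, eBayes with an intensity trend), within a model on its own arrays (8 residual degrees of freedom in each adult model, 12 in the fetal model) and between models on all 40 arrays (28). The two-sided p-values were corrected for 10860 tests after Benjamini and Hochberg, with a threshold of 0.05, and the fit was tested on simulated data.

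The members, the pathway list and the marker lists were chosen with earlier results of these data known. Named genes are the members, the tested gene most like each over the group means, and up to 4 called pathway genes with the smallest adjusted p per comparison. Arrays numbered alike in polysome and total RNA deviated together in every pair (r = 0.46 to 0.82, 0.51 to 0.72 and 0.33 to 0.69 in the fasted/refed, hepatectomy and fetal models), so the number was taken to pair them as 1 liver. DMSO and rapamycin arrays numbered alike did so in the fetal model (r = 0.42 to 0.75) but not in the fasted/refed (−0.62 to 0.39) and hepatectomy (−0.07 to 0.28) models. No 2 arrays held the same values. Alternatives changed the filter, the scaling, the pseudocount, the variance model, array weights, the arrays fitted, the replicate block and each array in turn.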

Additional observations from a re-analysis of the deposited data

Results flagged for a closer look

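A difference between models under the same contrast, tested by limma's F test on all 40 arrays, marked 6 results. The rapamycin effect on Eif4ebp1 in total RNA differed among the 3 models (adjusted p = 0.0160): its effect was 0.84 in fasted/refed, −0.32 in hepatectomy and −0.19 in fetal livers, and none of the 3 was called alone. The polysome minus total difference in DMSO livers differed among the models for Mtor (adjusted p = 0.00244) and Rptor (adjusted p = 0.0276), whose values were below 0 in both adult models and above 0 in fetal livers, with only the hepatectomy differences called. It also differed for Eif4ebp1 (adjusted p = 0.0235), Rheb (adjusted p = 0.0288) and Fkbp1a (adjusted p = 0.0322), whose differences were called in both adult models and not in fetal livers. Among the 36 sets of 4 fetal arrays of a member and group, 0 had an array far from the others by Dixon's criterion at the 95% level. Groups of 3 were not examined in that way.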

How the results depend on the processing

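Of 189 results of single members, 33 were called, and of their 651 values under the alternatives 582 were still called and 0 had the opposite sign. Of 3435 alternative values of uncalled results, 72 were called and 131 changed sign without a call. The counts of members called that moved by over 1.5 times were as follows. With no filter on low intensity, fetal against hepatectomy total RNA gave 1 instead of 2, as it did with the liver as a random block. Cyclic loess scaling gave 1 instead of 0 for hepatectomy against fasted/refed polysomes and 2 instead of 5 for the polysome difference among models. Array quality weights gave 1 for hepatectomy total RNA with rapamycin, 2 for fetal polysome against total RNA, 4 for hepatectomy against fasted/refed polysomes, 4 instead of 2 for the same models in total RNA, 5 instead of 2 for fetal against hepatectomy total RNA, and 1 for the rapamycin effect among models on polysomes. With the spread from all 40 arrays the counts were 2 for rapamycin in fasted/refed total RNA, 7 instead of 4 for fasted/refed polysome against total RNA and 1 for the fetal livers. The replicate block on the liver gave 8 instead of 4 for fasted/refed polysome against total RNA, and blocks on the number, which pairs treatments only in the fetal livers, gave 0 in the 6 rapamycin comparisons. It changed no other count by over 1.5 times. Leaving out both fasted/refed total arrays numbered 2, chosen after seeing the data, gave 2 for rapamycin in fasted/refed total RNA and 4 for hepatectomy against fasted/refed total RNA.

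Leaving out 1 array at a time, rapamycin counts ran from 0 to 5 in fasted/refed total RNA, 0 to 2 in hepatectomy polysome RNA and 0 to 1 in hepatectomy total RNA, and those of the fetal polysome comparison from 0 to 2. They ran from 2 to 4 for hepatectomy against fasted/refed total RNA, 1 to 2 for fetal against hepatectomy total RNA, 0 to 4 for the rapamycin effect among models in total RNA and 1 to 5 for the polysome difference among models. Over all clusters, the calls with 1 array left out ran from 0 to 1756 for rapamycin in fasted/refed total RNA, 57 to 1687 (690 with every array) in hepatectomy polysome RNA, 4 to 847 (544) in hepatectomy total RNA, 2 to 1332 (46) for its effect among models in total RNA, 2 to 41 (4) for the same on polysomes, 883 to 1899 (1573) for fetal polysome against total RNA, 1119 to 2890 (1898) for hepatectomy against fasted/refed total RNA and 412 to 1900 (808) for the polysome difference among models. Array quality weights moved those from 0 to 71 in fasted/refed polysome RNA, from 544 to 1811 in hepatectomy total RNA, from 4 to 162 and 46 to 533 for the effect among models, and from 808 to 2070. They gave 2651 instead of 1573 clusters for fetal polysome against total RNA, 3383 instead of 1378 for hepatectomy against fasted/refed polysomes and 2918 instead of 1898 in total RNA. The spread from all 40 arrays gave 349 clusters for rapamycin in fasted/refed total RNA, 193 and 217 in hepatectomy polysome and total RNA, and 2840 instead of 4758 for hepatectomy polysome against total RNA. Fits of only the 2 groups compared gave 146 and 14 for rapamycin after hepatectomy. The liver block gave 4615 instead of 2679 and 3044 instead of 1573 clusters for fasted/refed and fetal polysome against total RNA, and as a random block 16 and 2755 instead of 4 and 808 among models. For the rapamycin effect among models in total RNA, no filter gave 15 and cyclic loess scaling 18. Without both arrays numbered 2, the counts were 928, 2987 instead of 1898 for hepatectomy against fasted/refed total RNA, 534 and 1993. The causes were not tested. With 3 or 4 arrays a group, the median SE of a rapamycin difference was 0.18, 0.12 and 0.16 in the fasted/refed, hepatectomy and fetal models, which limits what the tests could call.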
